A study of Rattus norvegicus with 6 samples.

Results

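Fgf2, Cdh2, Pld1 and Pdcd10 are 4 genes with known roles in growth, adhesion and signalling in the vessel wall, and their transcripts were followed in rat carotid arteries after balloon injury. They were chosen by function: Fgf2 for smooth muscle growth, Cdh2 for N-cadherin contacts, Pld1 for phospholipase D signalling and Pdcd10 for vascular integrity. They are 4 of the 38 protein-coding genes that could be named through a RefSeq transcript on an array of 38321 non-control probes, and they are among the 29 of those genes that were bright enough to test. Each was followed through 1 named probe: A_44_P212850 for Fgf2, A_44_P349475 for Cdh2, A_44_P338970 for Pld1 and A_43_P19174 for Pdcd10. Further probes of these genes may be among those that could not be named. Each probe was printed as 10 spots on every array.

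When the lining of an artery is stripped, smooth muscle cells of the wall divide, move inward and build a new inner layer. Basic fibroblast growth factor, the product of Fgf2, is stored in the wall, binds FGF receptors together with heparan sulfate and drives smooth muscle cells to divide. N-cadherin, the product of Cdh2, joins neighbouring smooth muscle cells to each other and to endothelial cells and is tied to actin through catenins. Phospholipase D1 makes phosphatidic acid from phosphatidylcholine when small GTPases or protein kinase C activate it. Pdcd10, also called CCM3, binds CCM2 and kinases of the germinal centre family, and its loss in endothelium leads to cavernous malformations of small vessels.

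The samples were common carotid arteries of adult Sprague-Dawley rats, all male and of 250 to 300 g, with 3 sham and 3 injured samples. In the injured group a 2F balloon catheter was used on the right common carotid under phenobarbital (50 mg/kg), and tissue was taken after 2 weeks (14 days). The phenobarbital dose, the catheter size and the 2 weeks are recorded for the sham samples too. The controls are called sham in some labels and normal or uninjured in others, and whether those rats had an operation is not settled there. Each sample was hybridised to 1 one-colour Agilent array, a Cy3-labelled Arraystar design for long non-coding RNAs and mRNAs. Whether every sample is a separate animal is not in the labels, so p-values measure only the spread between these samples. RNA was taken from artery tissue and not from sorted cells, so a change in the number of cells of a type and a change in RNA per cell cannot be told apart. The labelled tissue could not be checked against cell type markers, because none of 40 marker genes of smooth muscle, endothelium, macrophages, T cells, fibroblasts, fat, skeletal muscle, nerve and blood (9 lists) had a probe that could be named.

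The arrays differed in ways that the labels do not give, and these differences run through every value below. Between 51.5% and 63.2% of probes were well above background on a sham array, and between 57.0% and 70.1% on an injured one. The 75th percentile of the unscaled signal was 89.5 intensity units on sham 3 and 214 to 284 on the other 5. A principal component of all probes took up 84.7% of the variance between arrays, and it did not follow the groups: sham 1, sham 2 and injured 1 scored 0.47, 0.30 and 0.42, and sham 3, injured 2 and injured 3 scored -0.20, -0.49 and -0.49. Over all tested probes the correlation of injured 1 was 0.97 with sham 1, 0.94 with sham 2, 0.60 with injured 2 and 0.61 with injured 3. For sham 3 it was 0.89 against injured 2, 0.90 against injured 3, 0.75 against sham 1 and 0.85 against sham 2. The library labelled injured 1 was thus most like sham 1 and sham 2, and the library labelled sham 3 most like injured 2 and injured 3. Whether these labels are right was not tested, and every difference between the groups is given as labelled. Arrays whose headers share a scan identifier were taken to be on 1 slide. By that reading, slide 1 held sham 1 and all injured arrays, and sham 2 and sham 3 were on slides of their own. Sham 2 was also scanned on another day than the other 5 arrays. Group and slide are thus largely confounded, and their effects cannot be fully told apart. No spot was saturated.

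Between injured and sham arteries none of the 4 genes passed the test. Cdh2, Pld1 and Pdcd10 had lower means in the injured group, with log2 fold changes of -1.28, -1.79 and -1.55, and Fgf2 had nearly the same mean in both, with a log2 fold change of -0.07. For Pld1 and Pdcd10 injured 2 and injured 3 carried the low values, and injured 1 was near sham 1 and sham 2. For Cdh2 sham 3 was low as well, and injured 1 lay below sham 1 and sham 2. A level here is log2 of the processed spot signal, averaged over the spots of the probe, minus the 75th percentile of that array, so 1 unit is a doubling. Levels of different probes are not compared, because probes differ in how brightly they bind. The threshold for a call was a limma adjusted p under 0.05, with the Benjamini-Hochberg method over all 24718 tested probes. Called probes were 0 of 4 among these genes and 0% of all tested probes, and at an unadjusted limma p under 0.05 they were 0 of 4 against 4.43% (1094 probes). The 3 injured values lay wholly above or wholly below the 3 sham values for 0 of the 4 genes and for 11.8% of the probes measured on all arrays. A log2 fold change of -1 or lower was seen for 3 of the 4 genes and for 23.0% of all tested probes, a share of 24718 probes whose median log2 fold change was 0.10. With 3 arrays a group, the smallest p of an exact permutation test is 0.1.

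**Figure D1:**
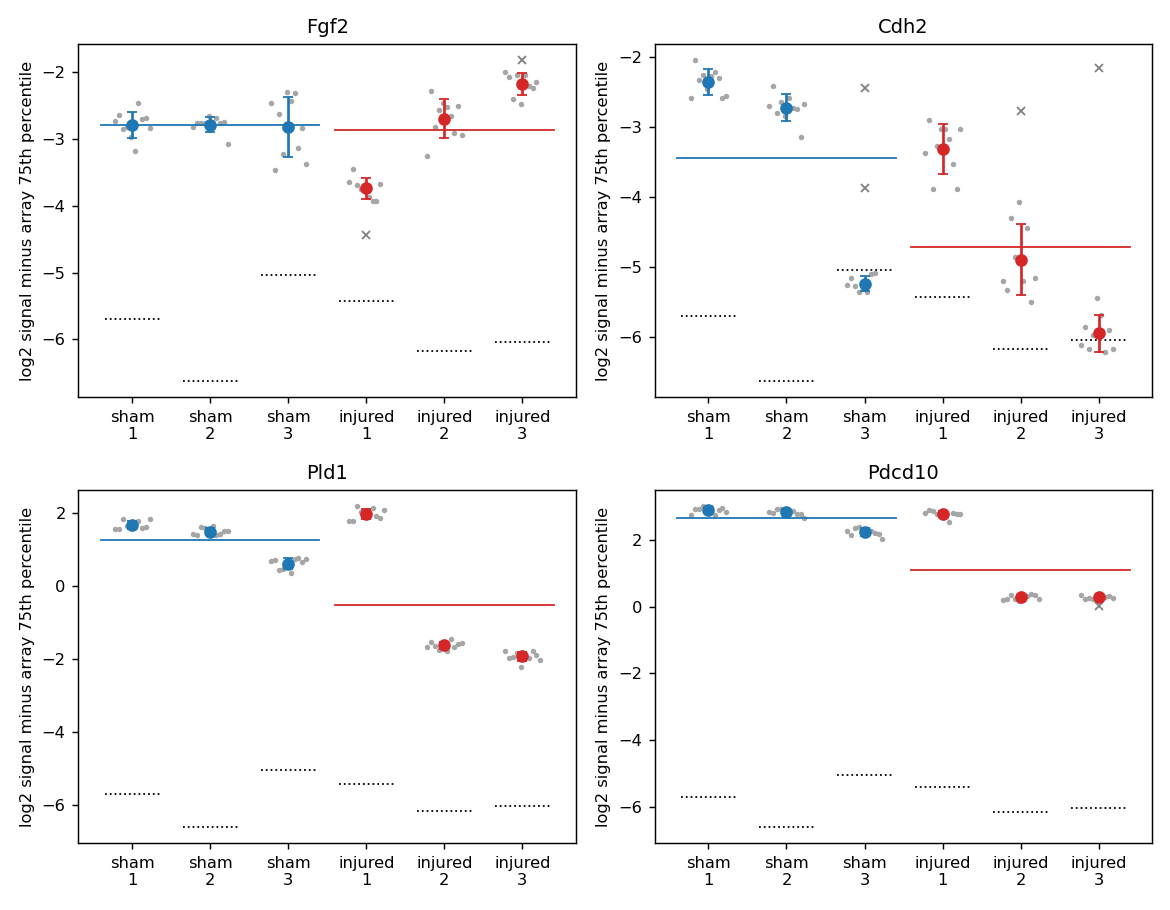
Level of each gene on each array, as log2 processed signal minus the 75th percentile of that array. Large points are array means with the SD over spots, grey points are the spots that entered, crosses are spots left out for an outlier flag, horizontal lines are the group means, and dotted lines mark the 95th percentile of the negative-control spots of each array. The groups overlap for all 4 genes, and Cdh2 on sham 3 and injured 3 lies at the negative-control line.

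The promoters of Fgf2, Pld1 and Pdcd10, taken from RefSeq on build GRCr8, are shown as a description only. The set of promoters used held none for Cdh2. Each run holds 250 bases before and 50 bases after the start of the gene, 5′ to 3′ on the strand of the gene, and capitals mark matches to the motifs named after them. The Fgf2 promoter is chr2:122164204-122164503 (plus strand), that of Pld1 is chr2:112821926-112822225 (plus strand) and that of Pdcd10 is chr2:162644563-162644862 (minus strand).
Fgf2: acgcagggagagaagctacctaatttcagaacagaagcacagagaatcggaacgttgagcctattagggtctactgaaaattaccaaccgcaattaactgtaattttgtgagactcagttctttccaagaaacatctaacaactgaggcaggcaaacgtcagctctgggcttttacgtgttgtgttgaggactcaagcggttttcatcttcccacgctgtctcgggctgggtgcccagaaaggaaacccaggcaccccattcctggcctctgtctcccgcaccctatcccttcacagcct
Pld1: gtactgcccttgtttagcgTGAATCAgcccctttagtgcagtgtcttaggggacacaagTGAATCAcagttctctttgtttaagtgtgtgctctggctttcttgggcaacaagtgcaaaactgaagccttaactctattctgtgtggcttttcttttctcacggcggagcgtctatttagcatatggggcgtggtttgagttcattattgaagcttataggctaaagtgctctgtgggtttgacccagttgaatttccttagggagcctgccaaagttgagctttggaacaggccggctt
Pdcd10: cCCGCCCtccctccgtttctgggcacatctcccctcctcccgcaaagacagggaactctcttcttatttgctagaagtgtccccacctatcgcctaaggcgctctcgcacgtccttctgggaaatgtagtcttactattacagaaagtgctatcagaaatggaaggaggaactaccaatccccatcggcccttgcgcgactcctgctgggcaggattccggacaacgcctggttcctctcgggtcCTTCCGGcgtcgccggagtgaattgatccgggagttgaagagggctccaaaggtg

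Motifs searched on both strands were the CArG box, which serum response factor binds in smooth muscle genes, and AP-1 (TGANTCA), Sp1 (GGGCGG), ETS (CCGGAAG) and the TATA box (TATAAA). The Pld1 run holds 2 copies of TGAATCA, at -231 to -225 and -191 to -185 from the start. They match the letters TGANTCA searched for AP-1, which allow any base in the middle, and both copies hold A there. A match to TGANTCA, with any middle base, is held by 7.33% of 33469 promoters of the same length. The Pdcd10 run holds CCGCCC at -249 to -244, which is the Sp1 motif read on the other strand, and CTTCCGG at -5 to 2, which is the ETS motif read on the other strand. No match overlapped another. An Sp1 match is held by 33.1% of promoters and an ETS match by 8.75%. None of the searched letters occurs in the Fgf2 run, and neither a CArG box (1.64% of promoters) nor a TATA box (14.2%) occurs in any of the 3. The Pdcd10 run is 56.67% G or C with 18 CpG sites, the Fgf2 run 49.67% with 10 and the Pld1 run 46.33% with 6. Pld1 and Pdcd10 share none of the motifs searched, and binding was not measured here.

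Fgf2 encodes the growth factor of the set. Its level was -2.79 on sham 1, -2.79 on sham 2 and -2.82 on sham 3. On the injured arrays it was -3.74 on injured 1, -2.69 on injured 2 and -2.18 on injured 3. The sham arrays were almost equal, and the injured arrays lay on both sides of them, with injured 1 lowest and injured 3 highest of all 6. The injured mean of -2.87 ± 0.79 differed from the sham mean of -2.80 ± 0.02 (SD, n = 3 each) by a log2 fold change of -0.07 ± 0.55 (SE). The 95% interval of that difference ran from -1.41 to 1.26, which leaves room for a change of more than 2-fold either way (adjusted p = 0.938 in limma, exact two-sided permutation p = 1). Of all tested probes, 96.5% had a larger absolute fold change. The direction of so small a difference is not fixed, since it was 0.21 with no scaling between arrays, 0.12 with the 75th percentile taken over probes detected on all arrays and 0.36 without injured 1.

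The 3 sham values of Fgf2 lay closer together than the single spots of its probe on any of those arrays. A level is a mean over spots, so its own error is smaller than the SD over single spots. Over 10 spots that error is still larger than the SD between these arrays. The SD over the 10 spots was 0.19, 0.11 and 0.45 on sham 1, sham 2 and sham 3, against an SD of 0.02 between the arrays. An SD at or below that between sham arrays was found for 0.098% of tested probes, and the median over them was 0.79. So close an agreement is finer than the spots resolve, and it is no measure of how steady Fgf2 is in sham arteries. Unscaled signals of Fgf2 were 35.5, 41.1 and 12.7 intensity units on sham 1, 2 and 3 and 17.1, 33.0 and 50.8 on injured 1, 2 and 3. The sham signals therefore differed by nearly the same factor as the brightness of their arrays, with sham 3 the dimmest. All 10 spots were well above background on sham 1, sham 2, injured 2 and injured 3, and 6 and 5 of 10 were on sham 3 and injured 1. The level lay 1.69 to 3.86 log2 units above the 95th percentile of the negative-control spots of its array, with injured 1 nearest to it. The SD between injured arrays was 4.38 times the median SD over spots, and 63.0% of tested probes had an SD at least as large between those arrays.

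Cdh2 encodes N-cadherin, the adhesion molecule of the set. Its level was -2.36 on sham 1, -2.73 on sham 2 and -5.24 on sham 3. It was -3.31 on injured 1, -4.89 on injured 2 and -5.95 on injured 3. Sham 1, sham 2 and injured 1 were high and the other arrays low, so that sham 3 lay between injured 2 and injured 3 and the groups overlapped. The sham arrays averaged -3.44 ± 1.56 and the injured arrays -4.72 ± 1.33 (SD, n = 3 each). The log2 fold change was -1.28 ± 1.03 (SE) with a 95% interval of -3.78 to 1.23 (adjusted p = 0.599 in limma, exact two-sided permutation p = 0.3). Of all tested probes, 32.8% had a larger absolute fold change.

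The low values of Cdh2 are at the limit of what the array can measure. Most of its spots were well above background only on sham 1, sham 2 and injured 1, with 10, 10 and 8 of 10 spots. On sham 3, injured 2 and injured 3 that held for 1, 3 and 1 of 10 spots. The 1 such spot on sham 3 and on injured 3 had an outlier flag and was left out of the level. So was the highest of the 3 on injured 2. The unscaled signal was 47.7, 42.9 and 2.38 intensity units on sham 1, 2 and 3 and 23.0, 7.19 and 3.74 on injured 1, 2 and 3. Against the 95th percentile of the negative-control spots the level was 3.34 and 3.90 log2 units higher on sham 1 and sham 2, and on sham 3 it was -0.19. On the injured arrays it lay 2.12, 1.28 and 0.10 above that percentile. The low side of Cdh2 is therefore near background in both groups, and the order of sham 3, injured 2 and injured 3 is not settled by it. With every level raised to at least that percentile, a setting chosen after seeing the data, the log2 fold change was -1.34. The value was -0.46 after normexp background correction, which lifts dim signals.

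Pld1 encodes phospholipase D1, the signalling enzyme of the set. Its level was 1.66 on sham 1, 1.48 on sham 2 and 0.60 on sham 3. It was 1.97 on injured 1, -1.64 on injured 2 and -1.94 on injured 3. Injured 1 was the highest of all 6 arrays, and injured 2 and injured 3 were below every sham array. The sham arrays averaged 1.25 ± 0.57 and the injured arrays -0.54 ± 2.17 (SD, n = 3 each). The log2 fold change of -1.79 ± 1.12 (SE) corresponds to a 3.45-fold lower geometric mean, and its 95% interval ran from -4.50 to 0.93 (adjusted p = 0.599 in limma, exact two-sided permutation p = 0.4). Among all tested probes 16.1% had a larger absolute fold change, and 8.34% had a lower one.

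All 10 spots of Pld1 were well above background on every array, and signals ran from 60.0 to 893 intensity units. The SD over spots was 0.09 to 0.15, and every pair of neighbours in the order of the 6 arrays was further apart than that. The spread between injured arrays was 18.5 times the median SD over spots, against 4.84 times between sham arrays.

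Pdcd10 encodes the CCM3 protein. Its level was 2.90 on sham 1, 2.85 on sham 2 and 2.25 on sham 3. It was 2.79 on injured 1, 0.28 on injured 2 and 0.28 on injured 3. Sham 1, sham 2 and injured 1 were within the SD over spots of their neighbours, sham 3 was lower, and injured 2 and injured 3 were lowest and alike. The sham arrays averaged 2.67 ± 0.36 and the injured arrays 1.12 ± 1.45 (SD, n = 3 each). The log2 fold change of -1.55 ± 0.80 (SE), a 2.92-fold lower geometric mean, had a 95% interval of -3.50 to 0.41 (adjusted p = 0.599 in limma, exact two-sided permutation p = 0.2). That adjusted p is the lowest of any tested probe, but it is no rank, since the adjustment gives many probes the same value. Cdh2 and Pld1 share it with unadjusted limma p of 0.262 and 0.16, against 0.101 for Pdcd10. An unadjusted limma p under 0.05 was found for 1094 probes, and none of these genes was among them. All 10 spots of Pdcd10 were well above background on every array, the SD over spots was 0.11 or less, and signals ran from 260 to 2046 intensity units. A larger absolute fold change was found for 22.9% of tested probes.

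**Figure D2:**
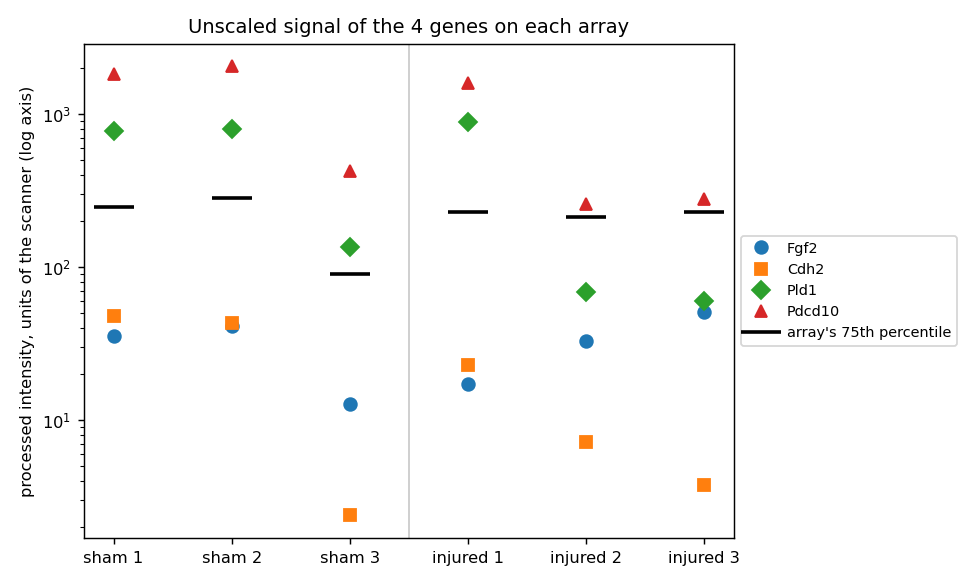
Unscaled processed signal of the 4 genes on each array, on a log axis, with a black bar at the 75th percentile of that array. Pld1 and Pdcd10 are low on injured 2 and injured 3 although the bars of those arrays are near those of sham 1 and injured 1, and all 4 genes are lower on sham 3 than on the other sham arrays, as is its bar.

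The pattern of Pld1 and Pdcd10 can be seen before any scaling. The unscaled signal of Pld1 was 777, 794 and 136 intensity units on sham 1, 2 and 3 and 893, 68.6 and 60.0 on injured 1, 2 and 3. For Pdcd10 these signals were 1831, 2046 and 424, and 1583, 260 and 280. Sham 3 was low for both before scaling, and after scaling it lay nearer to the other sham arrays than to injured 2 and injured 3. Log2 fold changes without scaling were -1.50 for Pld1, -1.26 for Pdcd10 and -0.99 for Cdh2. Over median, 75th percentile, quantile and no scaling the 3 genes kept a negative difference, from -2.06 to -1.50 for Pld1, -1.82 to -1.26 for Pdcd10 and -1.55 to -0.99 for Cdh2. The same scalings moved the median log2 fold change of all tested probes between -0.17 and 0.38.

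The 4 genes did not vary alike over the 6 arrays. As a description over n = 6 arrays that share their scaling, Pld1 and Pdcd10 correlated at r = 0.99 (rho = 0.83), Cdh2 and Pld1 at r = 0.84 (rho = 0.77), and Cdh2 and Pdcd10 at r = 0.82 (rho = 0.94). Fgf2 ran the other way, with r = -0.51 against Cdh2, -0.72 against Pld1 and -0.62 against Pdcd10. For Fgf2 the order of arrays was injured 3, then injured 2 with the 3 sham arrays, which do not differ beyond the SD over spots, then injured 1. For Pld1 the order was injured 1, sham 1, sham 2, sham 3, injured 2 and injured 3. Thus injured 1 was the lowest array for Fgf2 and the highest for Pld1, and injured 3 was the highest for Fgf2 and the lowest for Pld1. For Cdh2 the order was sham 1, sham 2 and injured 1, followed by the 3 arrays near background, which have no settled order.

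**Figure D3:**
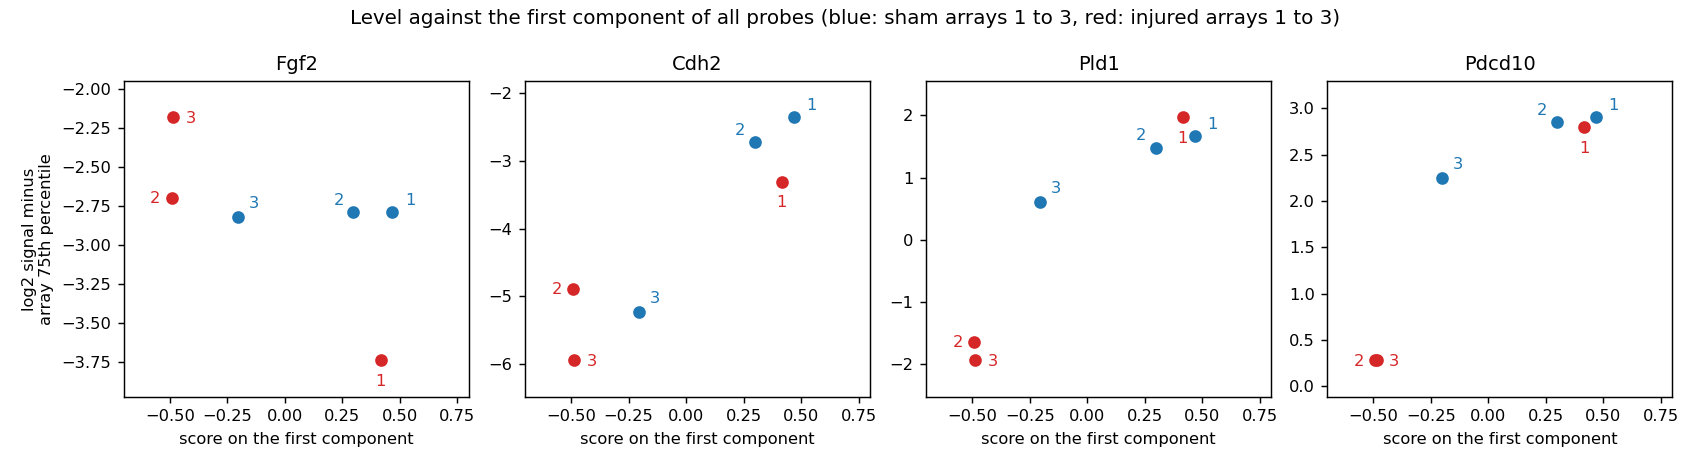
Level of each gene against the score of each array on the first principal component of all probes, with sham arrays in blue, injured arrays in red and replicate numbers beside the points. Cdh2, Pld1 and Pdcd10 rise with the score and Fgf2 falls, and injured 1 lies with sham 1 and sham 2 at the high end of the axis.

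Levels of Cdh2, Pld1 and Pdcd10 correlated with the score of the first component at 0.93, 0.95 and 0.93, and that of Fgf2 at -0.65 (n = 6 arrays). The component was computed on probes that include these 4, so the values describe and do not test. They are ordinary values on this array, whose median absolute correlation with the component was 0.91. Absolute correlations at least as large were found for 43.2% of tested probes for Cdh2, 35.9% for Pld1, 44.3% for Pdcd10 and 77.3% for Fgf2. With the component as a covariate in limma the log2 fold changes were -0.16 for Cdh2, -0.53 for Pld1, -0.71 for Pdcd10 and -0.44 for Fgf2, with adjusted p of 0.866, 0.528, 0.339 and 0.518. What the component stands for was not tested.

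Which arrays are counted decides whether Cdh2, Pld1 and Pdcd10 pass the test. Array weights, which limma estimates from how far each array departs from its group over all probes, were 0.15 for sham 3, 0.063 for injured 1 and 1.15 to 5.93 for the other 4. With them the log2 fold changes were -2.74 for Cdh2, -3.27 for Pld1 and -2.54 for Pdcd10, with limma adjusted p of 0.000523, 7.95e-05 and 7.95e-05. Fgf2 was at 0.37 with an adjusted p of 0.172. In that fit 3 of the 4 genes were called, and so were 82.3% of all tested probes. With sham 3 and injured 1 both left out, the log2 fold changes were -2.87, -3.36 and -2.59 for these 3 genes, with limma adjusted p of 0.00633, 0.00106 and 0.00113, and 0.35 for Fgf2 with 0.271. Again 3 of the 4 were called beside 73.6% of all probes tested there. Cdh2 passed the filter with the minimum of 3 arrays, which were sham 1, sham 2 and injured 1. With injured 1 left out, it was in the fit only through sham arrays where it was high. Its call there is therefore no support for a lower level after injury. The Cdh2 values of both fits are also not exact folds, since neither injured 2 nor injured 3, which carry the injured side, was well above background. Each of these 2 arrays was then set to the lowest level of any probe well above background on it. Cdh2 was 3.55-fold lower there than on sham 1 and sham 2. This is no strict limit, since on injured 2 the highest Cdh2 spot kept (-4.08) lay above the set level (-4.49). Against all 3 sham arrays no such figure can be given, because sham 3 lay near background and below the set levels. Array weights and leaving out sham 3 and injured 1 both lower the part of arrays seen to be unlike their group in these data. Their p-values are therefore too small as a test of injury, and a call that most probes share says little about these genes. Without injured 1 alone none of the 4 was called, and Pld1 and Pdcd10 had log2 fold changes of -3.04 and -2.38, each with a limma adjusted p of 0.0524. For Cdh2 the value was -1.98 without injured 1, -2.17 without sham 3, -0.74 without sham 1 and -0.66 without injured 3, and for Pld1 it was -1.09 without injured 3. Within slide 1, where sham 1 was set against the 3 injured arrays, the differences were -0.08 for Fgf2, -2.35 for Cdh2, -2.20 for Pld1 and -1.78 for Pdcd10.

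**Figure D4:**
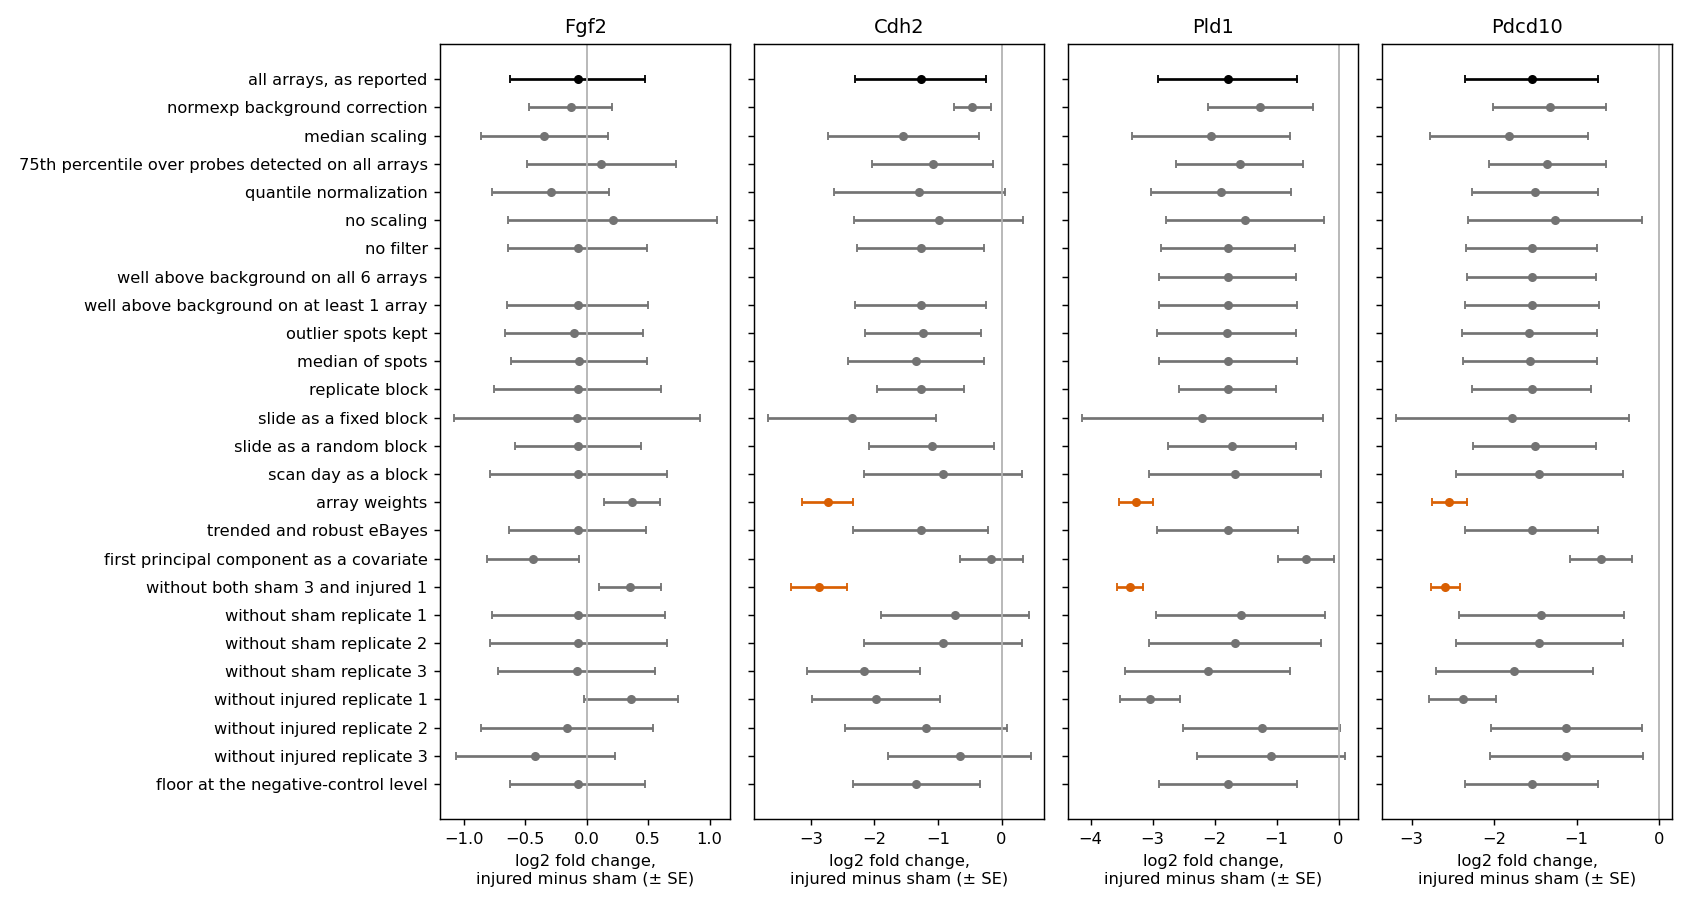
Log2 fold change of injured against sham with its SE for each gene under each setting, with the value as reported in black, settings with a limma adjusted p under 0.05 in orange and the others in grey. Cdh2, Pld1 and Pdcd10 stay below 0 in every setting drawn and turn orange when arrays are weighted or when sham 3 and injured 1 are both left out, and Fgf2 lies on both sides of 0. Fgf2 and Cdh2 have no value where a probe had to be well above background on all 6 arrays.

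The genes whose levels ran most like each member over the 6 arrays were sought among the 25 other named genes with a tested probe. For Pld1 they were Ndfip2, an adaptor of Nedd4 ubiquitin ligases, Pdk3, a kinase of pyruvate dehydrogenase, and Magoh, a subunit of the exon junction complex, each at r = 0.99. For Pdcd10 they were Odf2l at 0.99, and Cse1l, which returns importin alpha from the nucleus, and Magoh at 0.98. For Cdh2 they were Actb, cytoplasmic beta-actin, at 0.94, the ribosomal protein gene Rpl13a at 0.92 and Pdk3 at 0.91. For Fgf2 they were Ppp2r2b, a regulatory subunit of protein phosphatase 2A, at 0.80, Sdha, a subunit of succinate dehydrogenase, at 0.79 and Slc28a2, a nucleoside transporter, at 0.40. Pld1 and Pdcd10 each correlated above 0.9 with 14 of the 25 genes and Cdh2 with 7. Fgf2 did so with 0, and it correlated below 0 with 21. The median correlation was 0.94 for Pld1, 0.93 for Pdcd10, 0.83 for Cdh2 and -0.60 for Fgf2. These likenesses share arrays and scaling, and most named genes follow the same arrays. The named genes do not stand for the whole array. Of tested probes measured on all arrays, 51.5% correlated above 0 with the first component. Running against that component, as Fgf2 did, is therefore common.

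Levels of the genes most like Pld1 and Fgf2 show which arrays carry the likeness. Ndfip2 was at 2.10, 1.88 and 0.93 on sham 1, 2 and 3 and at 2.67, -0.79 and -0.76 on injured 1, 2 and 3. As with Pld1, injured 1 was highest and injured 2 and injured 3 were lowest. Ppp2r2b was at -2.61, -2.61 and -1.98 on sham 1, 2 and 3 and at -3.38, -2.16 and -2.24 on injured 1, 2 and 3. As with Fgf2, injured 1 was the lowest array, but sham 3 was the highest.

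The pathways of the 4 genes could be followed no further. Lists of FGF signalling (25 genes), cadherin and catenin adhesion (15), phospholipase D signalling (14) and the cavernous malformation complex with its kinases (15) hold 69 entries, and 4 of them had a named probe, which are the 4 genes themselves. Called members were 0 in either direction in each list. FGF receptors, catenins, phospholipase D2, and the partners CCM2 and KRIT1 were not analysed here, since 38282 of 38321 probes were not paired with a gene in the tables used.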

How the data were processed

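RNA of 3 sham and 3 injured rat carotid arteries was measured on 6 one-colour arrays. The deposited spot intensity values come from the scanner software Agilent Feature Extraction (version 11.0.1.1 in the submitters' processing notes). They are background-subtracted and were left unscaled from array to array, per the file headers. That software also set the deposited flags (0 or 1) that mark saturated spots, outlier spots and spots well above background. A deposited table of log2 values normalized by the authors (by which method is not given in the sources used here) could not be matched to the 4 probes and gave only a count over all its probes.

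Outlier spots were left out, log2 intensities were averaged over the spots of a probe, control probes were dropped, and the 75th percentile of the remaining probes of an array was subtracted. Probes well above background (over 50% of spots) on at least 3 of 6 arrays were tested, 24718 of 38321, in R 4.3.3 with limma 3.58.1 (lmFit, eBayes) and no covariates, with the Benjamini-Hochberg adjustment over all of them. The number of arrays limits the precision. Through a transcript accession, 39 probes matched RefSeq genes on GRCr8. Named are the 4 genes and, for each, the 3 other named genes with the highest correlation with it. Alternatives covered the background correction, scaling, filter, spots, array weights, a block for replicate number, scan day or slide, the first principal component and arrays left out. The genes, lists and alternatives were chosen with earlier results of these data known.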

Additional observations from a re-analysis of the deposited data

How the results depend on the processing

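With all arrays weighted alike, changes of background correction, scaling, filter, spot averaging and blocking called none of the 4 genes. For Fgf2, 19 of 24 settings kept a negative difference and none reached the threshold. It was positive at 0.12 with the 75th percentile over probes detected on all arrays, 0.21 with no scaling, 0.37 with array weights, 0.35 without both sham 3 and injured 1 and 0.36 without injured 1. Cdh2 kept its direction and stayed uncalled in 22 of 24 settings, and Pld1 and Pdcd10 in 23 of 25 each. The exceptions were array weights (-2.74, -3.27 and -2.54 in that order) and leaving out sham 3 together with injured 1 (-2.87, -3.36 and -2.59), each of which called 3 of the 4 genes. Requiring signal on all 6 arrays left out Fgf2 and Cdh2.

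Leaving out 1 array at a time gave -0.42 to 0.36 for Fgf2, -2.17 to -0.66 for Cdh2, -3.04 to -1.09 for Pld1 and -2.38 to -1.13 for Pdcd10. It called 0 of the 4 genes and 0 of all probes each time, although without injured 1 the unadjusted limma p was under 0.05 for 10982 probes. Over all probes limma called 0 in the fit as reported, 20335 with array weights, 18151 without sham 3 and injured 1, 53 with the first component as a covariate and 3 with the replicate block, and 1094 had an unadjusted p under 0.05.

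Whether replicate numbers pair the samples was not settled. Deviations of same-numbered arrays correlated at 0.83, -0.57 and 0.82, and those of arrays with different numbers at -0.87 to 0.84. With 3 arrays a group and 84.7% of the variance on 1 component, these values cannot decide it. With the replicate block the values were -0.07, -1.28, -1.79 and -1.55 for Fgf2, Cdh2, Pld1 and Pdcd10 and none was called, with limma adjusted p of 0.949, 0.297, 0.242 and 0.26. A scan-day block equals leaving out sham 2. Slide as a random block had a correlation of -0.16 and changed no call. Normexp used the median signals of spots and background. The causes of these differences were not tested.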
